A study of Mus musculus with 53 samples.

Results

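The 35 genes described here are a chosen list of genes of cholesterol synthesis, transport and control, read in mouse brain. Of these, 20 encode enzymes of cholesterol synthesis, 5 control the pathway and 10 encode proteins that carry, store or remove cholesterol. The members were taken by gene symbol from a list of the pathway, and all 35 were present among the 12372 genes counted.

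In MJD84.2 mice, a model of spinocerebellar ataxia type 3 (SCA3), and in wild-type mice, RNA of 4 brain regions was sequenced to find which transcripts the expanded ataxin-3 alters and where. SCA3 mice were hemizygous for a transgene that holds the full human ATXN3 gene, its CAG repeat expanded, under its own human promoter, and kept their mouse Atxn3 gene. All mice of both genotypes were C57BL/6 males of 74 to 77 weeks that had received no treatment and had been through beamwalk and rotarod tests. Every SCA3 mouse weighed less than every wild-type mouse, so body weight and genotype cannot be told apart here. There were 14 mice (8 wild-type and 6 SCA3) and 53 libraries, 1 per mouse and region, with 8 wild-type and 6 SCA3 libraries of brainstem, 7 and 6 of cerebellum, 7 and 6 of cortex, and 8 and 5 of striatum. The transgene is human and reads were aligned to the mouse genome, so the count of mouse Atxn3 is no direct check of the genotype labels. It measured 40.1, 45.9 and 53.7 CPM (counts scaled to a common library size) in wild-type striatum (lowest, median, highest) and 54.3, 57.2 and 64.8 CPM in SCA3 striatum, without overlap. The difference was 0.33 log2 units, with a false discovery rate (FDR) of 0.000116 by edgeR (0.32, FDR 0.00121, without the 2 striatum libraries high in thalamic markers). It differed by 0.0059 in brainstem (FDR 0.983), 0.11 in cerebellum (FDR 1) and 0.14 in cortex (FDR 0.976), and whether reads of the transgene enter it was not tested.

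Library totals ranged from 31.7 to 76.7 M counts and RNA integrity numbers (RIN) from 5.7 to 9. The region labels were set against marker genes. The 6 cerebellar markers in the table (of 10 listed) summed to between 4052 and 5980 CPM in cerebellum and to no more than 380 CPM elsewhere. The 3 brainstem markers in the table (of 10) summed to between 68.4 and 221 CPM in brainstem and to no more than 43.6 CPM elsewhere. Cortex and striatum were separated less cleanly: 10 striatal markers summed to between 620 and 3796 CPM in cortex and to between 2075 and 9107 CPM in striatum. Thalamic markers summed to more than 1000 CPM in 2 wild-type striatum libraries, those of mice 7267058 (1721 CPM) and 7267059 (2626 CPM), and in 3 brainstem libraries, those of wild-type mouse 7267055 (1115 CPM) and SCA3 mice 9083514 (1096 CPM) and 9083515 (1105 CPM). Calls between genotypes in these regions are given with and without them.

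Cholesterol is assembled from acetyl-CoA through mevalonate, squalene and lanosterol, and the adult brain makes its own supply because lipoproteins of the blood do not cross the blood-brain barrier. Oligodendrocytes need it for myelin, and astrocytes pass it to neurons on ApoE particles, while neurons dispose of the excess by hydroxylation. The enzymes share a control system: Scap escorts the SREBP transcription factors (Srebf1 and Srebf2) to the Golgi for activation when sterol is low, and the Insig proteins hold them back when it is high. SREBP binds the sterol regulatory element of its target promoters, usually next to sites for NF-Y and Sp1.

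Promoter sequences from RefSeq (GRCm38.p6, 250 bases before to 50 bases after each start) were available for 29 of the 35 members. Sqle, Abcg1, Npc1, Fdps, Fdft1 and Stard4 had no entry. The letters TCACNCCA (core of the sterol regulatory element), CCAAT (NF-Y) and GGGCGG (Sp1) were searched on both strands, and no match of one motif overlapped a match of another. The 250 bases before the start are printed for the 4 enzymes that were lower in SCA3 brainstem and for Dhcr7, which was lower in SCA3 striatum, because these members carry the genotype results below. They are written 5′ to 3′ on the gene's strand and the capitals mark matches of the 3 motifs on either strand. The windows lie at chr13:119690101-119690350 (plus strand) for Hmgcs1, chr13:8885356-8885605 (plus) for Idi1, chr5:4104698-4104947 (minus) for Cyp51, chr8:64733579-64733828 (minus) for Msmo1 and chr7:143829964-143830213 (plus) for Dhcr7. The first 4 lie directly upstream of the annotated gene. The window of Dhcr7 belongs to 1 of 3 starts, the one with the most matches, and lies inside the annotated span of the gene.
Hmgcs1: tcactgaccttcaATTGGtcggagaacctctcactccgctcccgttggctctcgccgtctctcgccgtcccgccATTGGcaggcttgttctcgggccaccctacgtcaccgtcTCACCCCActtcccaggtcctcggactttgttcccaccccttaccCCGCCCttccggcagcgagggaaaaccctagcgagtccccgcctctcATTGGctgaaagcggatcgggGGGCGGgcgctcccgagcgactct
Idi1: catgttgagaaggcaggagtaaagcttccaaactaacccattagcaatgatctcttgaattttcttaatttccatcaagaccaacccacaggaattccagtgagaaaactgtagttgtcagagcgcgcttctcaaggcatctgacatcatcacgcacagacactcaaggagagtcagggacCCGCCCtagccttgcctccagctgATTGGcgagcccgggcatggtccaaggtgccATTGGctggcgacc
Cyp51: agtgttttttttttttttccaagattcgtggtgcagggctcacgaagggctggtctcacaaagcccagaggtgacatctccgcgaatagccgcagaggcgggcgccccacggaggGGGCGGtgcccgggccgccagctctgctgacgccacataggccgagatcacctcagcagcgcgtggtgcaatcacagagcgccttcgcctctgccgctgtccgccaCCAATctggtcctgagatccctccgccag
Msmo1: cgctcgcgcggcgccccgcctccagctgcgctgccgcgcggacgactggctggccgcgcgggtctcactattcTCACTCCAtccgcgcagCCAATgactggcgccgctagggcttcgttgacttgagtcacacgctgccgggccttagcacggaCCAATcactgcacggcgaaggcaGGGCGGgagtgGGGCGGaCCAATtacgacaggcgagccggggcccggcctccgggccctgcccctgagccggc
Dhcr7: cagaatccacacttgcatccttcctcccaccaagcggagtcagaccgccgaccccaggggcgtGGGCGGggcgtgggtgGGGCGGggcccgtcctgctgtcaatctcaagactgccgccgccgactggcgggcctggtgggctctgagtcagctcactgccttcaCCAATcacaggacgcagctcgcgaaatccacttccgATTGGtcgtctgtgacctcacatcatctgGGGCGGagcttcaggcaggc
The sterol regulatory element core was found in 4 members, Hmgcs1, Msmo1, Srebf2 and Apoe, that is in 13.8% of the 29 members and in 4.97% of the 27025 genes with a promoter in the table (4.36% of 32851 promoters). In Hmgcs1 its first base stood at -137 and in Msmo1 at -177 from the start, as seen in the sequences above. For the transcription factor Srebf2 (chr15:82147091-82147130, plus strand, directly upstream of the gene) and for Apoe (chr7:19699378-19699417, minus strand, upstream of 1 of 3 starts and inside the annotated gene) a stretch of 40 bases around the core, in capitals, is shown.
Srebf2: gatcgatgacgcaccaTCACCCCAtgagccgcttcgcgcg
Apoe: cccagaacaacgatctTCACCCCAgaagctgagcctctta
CCAAT was more widespread: it was found in 24 of 29 members (82.8%) against 41.1% of all genes (37.4% of promoters), and in 16 of the 17 synthesis genes with an entry. Before the start, Hmgcs1 and Msmo1 had 3 matches each, and Idi1 had 2, the nearest with its first base at -14. GGGCGG was found in 26 of 29 members (89.7%) against 38.2% of all genes (35.7% of promoters), and in 15 of 17 synthesis genes. These shares are over all genes with a promoter entry, not over the 12372 genes counted in brain, and were not matched for expression. A match describes the letters of the window only and was not tied to binding of any factor.

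In wild-type mice the synthesis genes formed a regional gradient, highest in brainstem and lowest in cerebellum. Of the 20 synthesis genes, 16 had their highest mean level in brainstem, 12 had their lowest in cerebellum, and the same 12 followed the order brainstem, cortex, striatum, cerebellum. Summed over the 20 genes, the wild-type libraries held a median of 1382 CPM in brainstem (1044 to 1528), 1064 CPM in cortex (962 to 1171), 815 CPM in striatum (685 to 951) and 703 CPM in cerebellum (643 to 769). A region was compared with the mean of the other 3 in wild-type mice by edgeR likelihood ratio test, and a gene was called where the FDR was below 0.05 and the difference at least 1.5-fold. By this rule 14 of the 35 members were higher in brainstem, against 9.53% of all genes, and 1 was lower (9.08% of all genes). In cerebellum 12 members were lower (16.5% of all genes) and 2 higher (11.5%). In cortex 1 member was higher (9.65% of all genes) and 0 lower (6.27%), and in striatum 1 was higher (8.24%) and 1 lower (5.27%). The calls of 15, 14, 1 and 2 members were the same in number with the mouse as a fixed replicate block. Without the 2 striatum libraries high in thalamic markers the counts were 15, 14, 1 and 3, Hsd17b7 being added in striatum, and without the 3 brainstem libraries 16, 14, 1 and 2, with Dhcr7 added in brainstem. The cortex count was 2 in place of 1, with Abca1, when mouse 9083372 was left out.

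**Figure D1:**
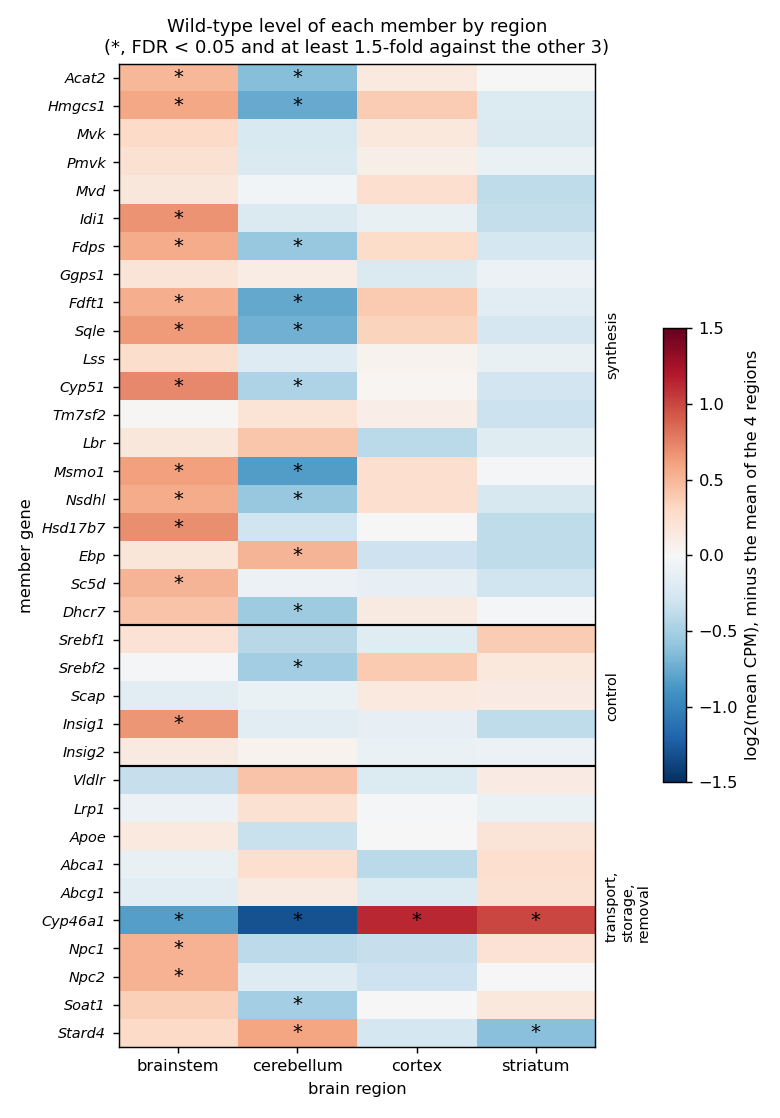
Wild-type level of each member (rows, by role) in each region (columns), as log2 of the mean CPM minus the mean of the 4 regions. Red is higher and blue lower, a star marks a call against the other 3 regions (FDR below 0.05 and at least 1.5-fold), and the brainstem column holds stars for 11 synthesis genes while the cerebellum column holds 9 lower ones.

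Between genes, levels are compared only per kilobase of exon (CPM per kb, with the union of exons of a GENCODE annotation of GRCm38). The counts were made on a RefSeq annotation, so these levels are approximate and close ranks may change with the exon lengths. Apoe, the main lipoprotein of brain extracellular fluid, stood highest in each region, from 519 CPM per kb in cerebellum to 750 in striatum. Hmgcs1 was the highest of the synthesis genes in each region, at 77.0 CPM per kb in brainstem and 30.4 in cerebellum. The lowest members were Tm7sf2 in brainstem (4.39 CPM per kb), Soat1 in cerebellum (2.59), and Idi1 in cortex (2.81) and striatum (2.37). The median synthesis gene had 10.6 CPM per kb in brainstem and 6.27 in cerebellum, and the median control gene 19.05 and 18.04.

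The early steps of the pathway showed the gradient clearly. Wild-type values are given as mean ± SD in CPM over 8 libraries of brainstem, 7 of cerebellum, 7 of cortex and 8 of striatum. Hmgcs1, which makes HMG-CoA at the entry to the mevalonate pathway, measured 354 ± 59.2 in brainstem, 309 ± 33.8 in cortex, 205 ± 36.4 in striatum and 140 ± 17.5 in cerebellum. Its level was 0.77 ± 0.092 (SE) log2 units above the mean of the other regions in brainstem and -1.01 ± 0.096 relative to them in cerebellum, and the neighbours brainstem and cortex did not differ beyond their spread (FDR 0.129). Acat2, the cytosolic thiolase that supplies acetoacetyl-CoA, measured 49.3 ± 6.64 in brainstem, 38.9 ± 1.66 in cortex, 34.8 ± 4.08 in striatum and 22.5 ± 2.39 in cerebellum. The kinases and decarboxylase that follow were flatter. Mvk, Pmvk and Mvd spanned 1.43-fold, 1.36-fold and 1.55-fold between their highest and lowest regions and were called in no region, and Mvd was the only synthesis gene with its highest level in cortex (20.1 ± 3.12).

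The isoprenoid and squalene steps again separated brainstem from cerebellum. Idi1, the isomerase that makes the reactive isoprenoid unit, measured 17.0 ± 3.57 in brainstem and between 8.32 ± 1.48 (striatum) and 9.85 ± 0.940 (cortex) in the other regions, which did not differ from neighbour to neighbour (FDR 0.495 and 0.311). Fdps, which condenses these units to farnesyl diphosphate, measured 42.2 ± 5.50 in brainstem and 19.5 ± 1.90 in cerebellum. Fdft1, squalene synthase, measured 105 ± 12.9 in brainstem and 42.0 ± 5.10 in cerebellum. Sqle, squalene epoxidase and a rate-limiting enzyme, followed the same order in every step. It measured 87.3 ± 11.3 in brainstem, 70.5 ± 9.76 in cortex, 47.2 ± 8.51 in striatum and 34.1 ± 4.57 in cerebellum, each neighbour differing from the next (largest of 3 FDRs 0.00871). Ggps1, at the branch point to geranylgeranyl groups, and Lss, lanosterol synthase, spanned 1.325-fold and 1.38-fold and were called in no region.

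Of the enzymes after lanosterol, those that strip methyl groups had steep gradients. Msmo1, the sterol methyl oxidase, measured 101 ± 12.6 in brainstem, 77.8 ± 8.46 in cortex, 64.3 ± 8.18 in striatum and 36.7 ± 6.45 in cerebellum, a 2.74-fold span. Cyp51, lanosterol demethylase, measured 124 ± 21.1 in brainstem and 55.1 ± 7.53 in cerebellum, and cerebellum and striatum did not differ (FDR 0.15). Nsdhl and Hsd17b7, which complete the demethylation, were higher in brainstem by 0.74 and 0.93 log2 units. Other late steps went differently. The sterol reductases Tm7sf2 and Lbr and the isomerase Ebp had their highest level in cerebellum, and of these only Ebp was called there, at 25.0 ± 1.66 against 19.96 ± 2.28 in brainstem, 14.1 ± 1.69 in cortex and 13.5 ± 1.83 in striatum. Sc5d, the sterol desaturase, was higher in brainstem (93.3 ± 13.2), and Dhcr7, the last reductase before cholesterol, was lower in cerebellum (22.6 ± 1.28 against 44.1 ± 5.75 in brainstem).

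The control genes differed among themselves. Insig1, itself a target of SREBP, was highest in brainstem as most enzymes were, with 127 ± 18.05 in brainstem, 74.0 ± 8.44 in cortex, 71.8 ± 8.29 in cerebellum and 62.0 ± 11.6 in striatum. Srebf2, which encodes the SREBP most tied to cholesterol synthesis, had another order, with 275 ± 25.5 in cortex, 234 ± 30.8 in striatum, 207 ± 8.50 in brainstem and 147 ± 9.49 in cerebellum. Scap and Insig2 were nearly even, spanning 1.24-fold and 1.18-fold. Srebf1, more tied to fatty acids, was highest in striatum (112 ± 16.9) and lowest in cerebellum (64.2 ± 4.22), without a call.

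The steepest regional member was a removal gene. Cyp46a1, the neuronal hydroxylase that lets cholesterol leave the brain, measured 245 ± 48.0 in cortex and 224 ± 51.3 in striatum, which did not differ (FDR 0.517), and 63.4 ± 14.0 in brainstem and 45.3 ± 4.93 in cerebellum. It was called in all 4 regions, higher in cortex and striatum and lower in brainstem and cerebellum. Npc1 and Npc2, the pair that moves cholesterol out of lysosomes, were higher in brainstem, at 159.9 ± 19.96 and 112 ± 14.3. Stard4, a cytosolic sterol carrier, was highest in cerebellum (48.8 ± 4.92) and lowest in striatum (21.1 ± 2.79). Soat1, which esterifies cholesterol for storage, was lower in cerebellum (25.3 ± 1.59 against 46.1 ± 4.54 in brainstem). The receptors Vldlr and Lrp1, the exporters Abca1 and Abcg1, and Apoe spanned between 1.25-fold and 1.71-fold and were called in no region.

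The genotypes were then compared region by region in the same fit. In brainstem 4 synthesis genes fell in SCA3, Hmgcs1, Idi1, Cyp51 and Msmo1, each by between 24.0% and 26.6% of its wild-type level, and the control gene Scap rose. These 4 of 35 members compare with 1.15% of all genes called lower, and the 1 member called higher with 0.776%. The fitted difference was negative for all 20 synthesis genes in brainstem, with a median of -0.22 log2 units against 0.0028 for all genes, and 13 of the 20 were lower at an unadjusted p under 0.05, as were 7.48% of all genes. For 13 of the 20 every SCA3 library lay below the wild-type median, as for 10.4% of all genes. No member had groups that did not overlap, where 0.614% of all genes had every SCA3 library below every wild-type library and 0.768% had every one above.

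In brainstem Hmgcs1 (chr13:119690351-119708260, plus strand) measured 253, 363 and 444 CPM in wild-type (lowest, median and highest of 8 libraries) and 223, 250 and 329 CPM in SCA3 (of 6). It fell by 0.42 ± 0.12 (SE) log2 units, or by 25.3% (FDR 0.0324). The groups overlapped, with 3 of 6 SCA3 libraries below all wild-type libraries. With the mouse as a replicate block (limma-voom) its FDR was 0.0573. Of its exon bases 12.1% are shared with Gm48342 on the other strand, and strand was not used in counting. Idi1 (chr13:8885606-8892396, plus strand) measured 11.2, 17.8 and 21.4 CPM in wild-type and 10.03, 11.5 and 16.9 CPM in SCA3. It fell by 0.44 ± 0.13 log2 units, or by 26.3% (FDR 0.0405), with 2 of 6 SCA3 libraries below all wild-type ones. Of its exon bases 9.2% are shared with Gm48574.

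Cyp51 and Msmo1, which both act in removing the methyl groups of lanosterol, also fell in brainstem. Cyp51 (chr5:4080674-4104697, minus strand) measured 91.1, 133 and 144 CPM in wild-type and 75.7, 86.8 and 113 CPM in SCA3. It fell by 0.45 ± 0.11 log2 units, or by 26.6% (FDR 0.00838), and 3 of 6 SCA3 libraries lay below all wild-type libraries. Of its exon bases 3.8% are shared with Akap9 on the other strand. Msmo1 (chr8:64718123-64733578, minus strand) measured 84.2, 98.0 and 122 CPM in wild-type and 66.7, 74.3 and 90.6 CPM in SCA3. It fell by 0.40 ± 0.10 log2 units, or by 24.0% (FDR 0.0131), with 4 of 6 SCA3 libraries below all wild-type libraries.

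Scap, the escort of SREBP, went the other way. Scap (chr9:110333288-110384949, plus strand) measured 81.9, 89.6 and 98.5 CPM in wild-type brainstem and 98.2, 103 and 121 CPM in SCA3. It rose by 0.24 ± 0.066 log2 units, or 18.02% (FDR 0.0203). The groups touched only at the edge, the lowest SCA3 library lying just under the highest wild-type one. Of its exon bases 13.2% are shared with 5830462I19Rik on the other strand. Srebf1 had a difference of 0.24 in the same direction that did not pass (FDR 0.197), nor did the Insig1 difference of -0.27 (FDR 0.232), and Srebf2 and Insig2 differed by 0.05 and -0.04.

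The other 16 synthesis genes were not called in brainstem and their differences ran from -0.36 (Hsd17b7, FDR 0.196) to -0.01 (Pmvk). Dhcr7 came nearest to the threshold, with 33.2, 46.2 and 49.7 CPM in wild-type and 31.5, 36.2 and 44.2 CPM in SCA3 (-0.27, FDR 0.0855). Mvd measured 14.6, 19.6 and 21.4 CPM in wild-type and 13.1, 13.6 and 20.1 CPM in SCA3 (-0.36, FDR 0.109). Here 4 of 6 SCA3 libraries lay below all wild-type ones and 1 stood near the wild-type median. The transport genes were split, 5 positive and 5 negative, with a median of -0.0045. Apoe measured 1348, 1537 and 1870 CPM in wild-type and 1170, 1259 and 1518 CPM in SCA3 (-0.26, FDR 0.203), and Abca1 60.9, 78.2 and 87.4 CPM in wild-type and 81.6, 88.8 and 96.8 CPM in SCA3 (0.21, FDR 0.365). Neither passed.

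**Figure D2:**
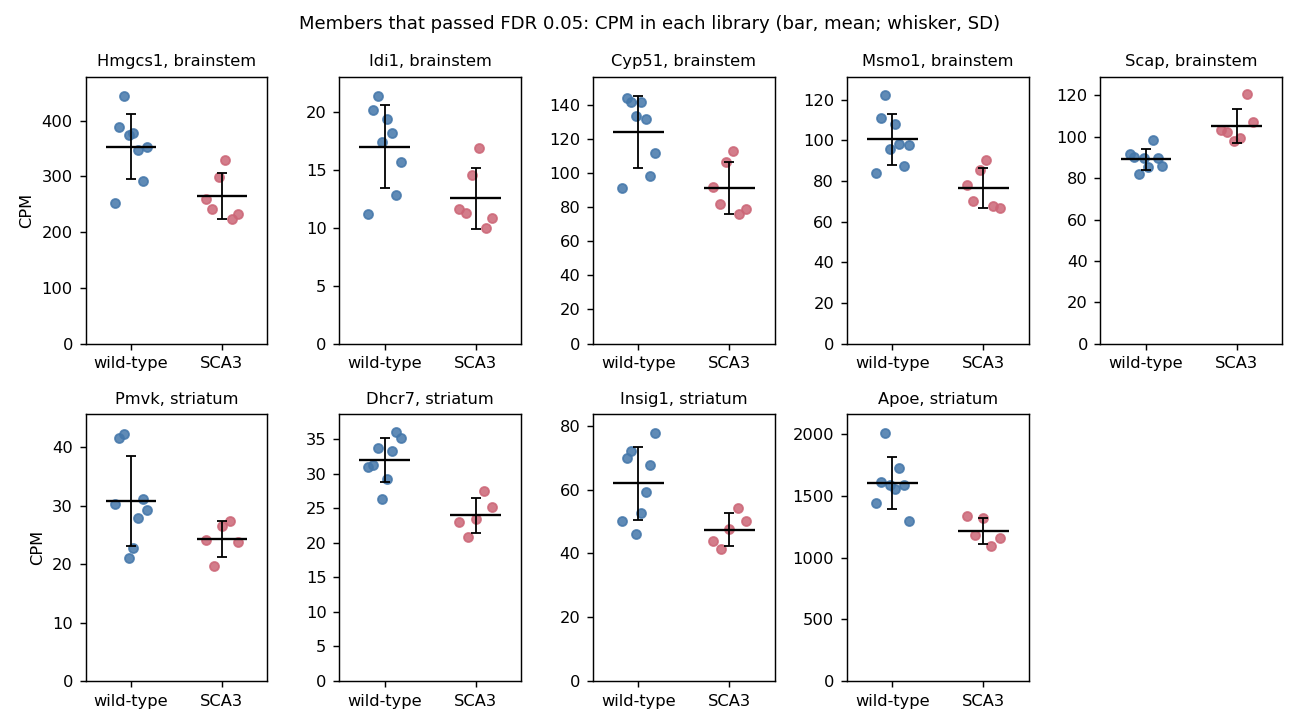
CPM of the 9 member and region pairs with FDR below 0.05, 1 point per library, wild-type in blue and SCA3 in red, with the mean (bar) and SD (whisker). Groups overlap in each panel, Scap is the only member higher in SCA3, and 4 of 6 SCA3 brainstem libraries for Msmo1 and 4 of 5 SCA3 striatum libraries for Dhcr7 lie below all wild-type libraries.

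Markers of glial cells moved with the brainstem result. All 12 mature oligodendrocyte markers had negative differences (median -0.54, 4 called), their sum being 10786, 19639 and 22362 CPM in wild-type (lowest, median, highest) and 9788, 12470 and 16463 CPM in SCA3. All 12 astrocyte markers did too (median -0.37, 5 called), with sums of 4783, 7184 and 9558 CPM in wild-type and 4229, 4654 and 5767 CPM in SCA3. In bulk tissue, fewer cells of a type and less RNA per cell cannot be told apart. The summed synthesis genes ran from 1044 to 1528 CPM in wild-type and from 971 to 1298 CPM in SCA3 (medians 1382 and 1061). The wild-type libraries with the lowest synthesis sum, those of mice 7267055 (1044 CPM) and 9083373 (1157 CPM), were also those with the lowest oligodendrocyte sum. The same libraries had the lowest astrocyte sums of wild-type brainstem (5775 CPM and 4783 CPM). With the mean log2 level of the oligodendrocyte markers as a covariate in a fit of brainstem alone, an alternative added after the data were seen, the synthesis median was -0.01 in place of -0.22. Under that covariate Hmgcs1 differed by -0.10 (FDR 0.469), Idi1 by -0.01 (FDR 0.963), Cyp51 by -0.10 (FDR 0.408) and Msmo1 by -0.15 (FDR 0.113). Scap differed by 0.18 (FDR 0.0725), while Npc1 (0.37, FDR 1.06e-09) and Npc2 (0.21, FDR 0.00577) were called higher. Neither was called in any of 26 alternatives without a glial score. There Npc1 differed by 0.08 to 0.16, and Npc2 was lower in SCA3 in each, by -0.12 to -0.02. With the astrocyte markers as covariate the synthesis median was 0.02 and the members called were again Npc1 and Npc2.

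Other marker lists were read in brainstem too. All 10 microglia markers had negative differences (median -0.15, with P2ry12 called), with sums of 358, 514 and 677 CPM in wild-type and 399, 439 and 512 CPM in SCA3. Of 10 general neuron markers 9 had negative differences (median -0.12, 0 called), with sums of 7891, 9579 and 11069 CPM in wild-type and 6770, 8533 and 9822 CPM in SCA3. The part of both lists in the brainstem differences was not tested. The 11 thalamic markers in the table (of 12) summed to 698, 837 and 1115 CPM in wild-type and to 657, 821 and 1105 CPM in SCA3, 8 higher and 3 lower with 0 called. The 3 brainstem libraries above 1000 CPM held 1044 CPM (wild-type), 971 CPM and 984 CPM (SCA3) of synthesis genes, the lowest sums of their genotypes. The SCA3 libraries among them, of mice 9083514 and 9083515, also had the lowest oligodendrocyte sums of SCA3 brainstem (10320 and 9788 CPM). The wild-type one, of mouse 7267055, was low in oligodendrocyte and astrocyte markers, as given above. Just below the mark, wild-type mice 7267059 (985 CPM) and 9083373 (955 CPM) held 1528 and 1157 CPM of synthesis genes. Which of these lists goes with the low synthesis sums was not tested. A fit of brainstem alone that included a term for the score of the thalamic list called 5 members. These were Hmgcs1 (-0.37, FDR 0.0125), Cyp51 (-0.39, FDR 0.00603), Msmo1 (-0.37, FDR 0.00178), Scap (0.22, FDR 0.00389) and Apoe (-0.28, FDR 0.021). Idi1 did not pass (-0.38, FDR 0.0979). Without the 3 libraries above 1000 CPM, an alternative added after the data were seen that leaves 7 wild-type and 4 SCA3 libraries, 0 members were called. The differences were then -0.38 for Hmgcs1 (FDR 0.261), -0.39 for Idi1 (FDR 0.283), -0.39 for Cyp51 (FDR 0.125), -0.34 for Msmo1 (FDR 0.243) and 0.18 for Scap (FDR 0.492), with a synthesis median of -0.18.

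**Figure D3:**
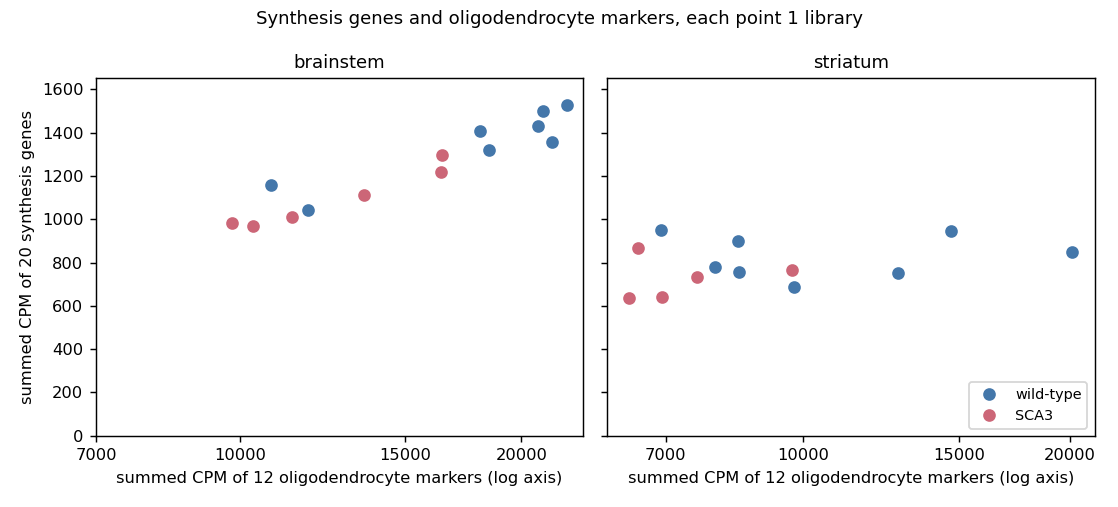
Summed CPM of the 20 synthesis genes against summed CPM of 12 mature oligodendrocyte markers (log axis) in brainstem (left) and striatum (right), 1 point per library, wild-type in blue and SCA3 in red. In brainstem, libraries with low marker sums also have low synthesis sums in both genotypes, down to 971 CPM. In striatum the wild-type library with the highest marker sum (20140 CPM) holds 849 CPM of synthesis genes. The wild-type striatum library with the lowest marker sum (6919 CPM) holds 951 CPM, the highest synthesis sum there.

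RNA quality also differed in brainstem, where RIN was 6.3, 7.3 and 7.6 in wild-type and 7.4, 7.9 and 8 in SCA3 (lowest, median, highest), and 2 of the 5 calls, Cyp51 and Msmo1, passed with RIN as a covariate. In that fit the other 3 differed by about as much as without it, Hmgcs1 by -0.41 (FDR 0.0705), Idi1 by -0.44 (FDR 0.0662) and Scap by 0.21 (FDR 0.0801). The mouse numbers fall into series. Within the series that holds mouse 9083514 alone (4 wild-type, 3 SCA3) 0 members were called, with differences of -0.39 for Hmgcs1, -0.39 for Idi1, -0.44 for Cyp51, -0.38 for Msmo1 and 0.28 for Scap. In this series the SCA3 mice were 74 weeks old and the wild-type mice 75. Within the series that holds mouse 7267056 (3 wild-type, 2 SCA3) 0 were called, with -0.54, -0.62, -0.54, -0.52 and 0.22 for the same genes. The count of 5 became 0 without SCA3 mouse 9083514 or 9083515. Their brainstem libraries are among the 3 high in thalamic markers and hold the lowest oligodendrocyte sums of SCA3 brainstem. The count became 2 without wild-type mouse 7267059 or 9083371, and 3 without SCA3 mouse 7267054 or 7267056 or wild-type mouse 7267058 or 9082857. It became 8 without wild-type mouse 7267055, whose library is also among the 3 high in thalamic markers. Without mouse 9083514 the differences were -0.38 for Hmgcs1 (FDR 0.113), -0.39 for Idi1 (FDR 0.184), -0.40 for Cyp51 (FDR 0.0607), -0.37 for Msmo1 (FDR 0.0718) and 0.19 for Scap (FDR 0.239). Without mouse 9083515 they were -0.39, -0.40, -0.41, -0.36 and 0.23 (FDRs 0.136, 0.169, 0.0551, 0.0716 and 0.0652). Over 26 alternatives, without the glial scores and the others added after the data were seen, Hmgcs1 ranged from -0.49 to -0.37, Idi1 from -0.54 to -0.38, Cyp51 from -0.52 to -0.39, Msmo1 from -0.45 to -0.35 and Scap from 0.19 to 0.28. The counts of members called under these alternatives were not set against the share of all genes called in the same fits.

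In striatum other members passed the test: the enzymes Pmvk and Dhcr7, the control gene Insig1 and the lipoprotein gene Apoe fell. These 4 of 35 members compare with 5.47% of all genes called lower, and 0 members were called higher where 2.07% of all genes were (0 members had an unadjusted p under 0.05 in that direction, against 9.44% of all genes, and DESeq2, edgeR quasi-likelihood and limma-voom also called 0 higher). The synthesis genes had a median difference of -0.14 (18 of 20 negative) against -0.0031 for all genes. Of the 20, 6 were lower at an unadjusted p under 0.05, as were 13.8% of all genes. The groups of each member overlapped, where 0.412% of all genes had every SCA3 library below every wild-type one and 0.242% above.

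Dhcr7 (chr7:143823167-143848410, plus strand), the last reductase of the pathway, measured 26.4, 32.3 and 36.0 CPM in wild-type striatum (lowest, median, highest of 8). In the 5 SCA3 libraries it measured 20.8, 23.0, 23.4, 25.1 and 27.5 CPM. It fell by 0.42 ± 0.093 log2 units, or by 25.1% (FDR 0.00114), with 4 of 5 SCA3 libraries below all wild-type libraries. The call held under 27 of 29 alternatives, more than for any other called member and region pair. Apoe (chr7:19696244-19701310, minus strand) measured 1295, 1591 and 2013 CPM in wild-type and 1098, 1161, 1180, 1324 and 1335 CPM in SCA3. It fell by 0.40 ± 0.11 log2 units, or by 24.0% (FDR 0.00944), and 3 of 5 SCA3 libraries lay below all wild-type ones.

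Insig1 and Pmvk overlapped more widely between genotypes. Insig1 (chr5:28071412-28078662, plus strand) measured 46.1, 63.4 and 77.8 CPM in wild-type and 41.4, 43.8, 47.6, 50.3 and 54.4 CPM in SCA3. It fell by 0.38 ± 0.12 log2 units, or by 23.4% (FDR 0.0258), and 2 of 5 SCA3 libraries lay below all wild-type ones. Pmvk (chr3:89454541-89469014, plus strand), phosphomevalonate kinase, measured 21.0, 29.8 and 42.3 CPM in wild-type and 19.7, 23.8, 24.1, 26.5 and 27.4 CPM in SCA3. It fell by 0.34 ± 0.10 log2 units, or by 21.1% (FDR 0.0232), with 1 of 5 SCA3 libraries below all wild-type ones.

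Cyp51, one of the genes that fell in brainstem, measured 47.2, 61.4 and 73.1 CPM in wild-type striatum and 38.6, 48.7 and 60.5 CPM in SCA3 (lowest, median, highest), a difference of -0.33 that did not pass (FDR 0.0663). Hmgcs1 differed by -0.28 (FDR 0.163), Idi1 by -0.25 (FDR 0.257) and Msmo1 by -0.15 (FDR 0.412) in the same region. Fdft1 (0.02) and Tm7sf2 (0.0026) were the 2 synthesis genes with a difference above 0. Of the other control genes, Srebf2 differed by 0.16 (FDR 0.230), Scap by 0.05 and Srebf1 by -0.15. The other transport genes lay between -0.16 (Npc2) and 0.21 (Cyp46a1, FDR 0.429).

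Several marker lists moved with genotype in striatum. The sum of 11 thalamic markers was 213, 462 and 2626 CPM in wild-type (lowest, median, highest) and 215, 216 and 470 CPM in SCA3, and all 11 had negative differences (7 called). Without the wild-type libraries of mice 7267058 and 7267059, an alternative added after the data were seen, 1 member was called, Dhcr7 (-0.41, FDR 0.00715), and Pmvk differed by -0.16 (FDR 0.392), Insig1 by -0.31 (FDR 0.181) and Apoe by -0.33 (FDR 0.0848). In the same fit Cyp51 differed by -0.27 (FDR 0.271), Hmgcs1 by -0.21 (FDR 0.491) and the synthesis median was -0.12. All 10 striatal markers had positive differences (median 0.47, 0 called), with sums of 2075, 4454 and 9107 CPM in wild-type and 5582, 7811 and 8228 CPM in SCA3. Of 10 general neuron markers 6 were lower, 2 of them called (Stmn2 and Elavl4), with sums of 5566, 6377 and 7600 CPM in wild-type and 5707, 6069 and 7445 CPM in SCA3. The 3 brainstem markers in the table all had negative differences in striatum (median -0.84, 0 called, 1 at an unadjusted p under 0.05), and their sums did not overlap, with 26.8, 35.8 and 43.6 CPM in wild-type and 17.9, 21.3 and 24.2 CPM in SCA3. The part of these 3 lists in the striatum differences was not tested. All 12 oligodendrocyte markers (6 called; sums of 6919, 9119 and 20142 CPM in wild-type, and 6368, 6932 and 9717 CPM in SCA3) and all 12 astrocyte markers (5 called; sums of 4857, 6168 and 6839 CPM, and 4967, 5126 and 5532 CPM) also had negative differences. With the oligodendrocyte score as covariate 2 members were called, Dhcr7 (-0.44, FDR 0.00656) and, higher in SCA3, Npc1 (0.29, FDR 0.00075). Npc1 was called in 0 of 25 alternatives without a glial score, where it differed by 0.0037 to 0.19. With the oligodendrocyte score Apoe differed by -0.27 (FDR 0.114), Insig1 by -0.35 (FDR 0.245) and Pmvk by -0.17 (FDR 0.758). With the astrocyte score 0 members were called. With the mouse as a replicate block (limma-voom) 2 members were called, Dhcr7 (FDR 0.00876) and Apoe (FDR 0.0274), while Pmvk (FDR 0.0551) and Insig1 (FDR 0.0527) were not.

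Values in striatum were also computed within single series of mouse numbers that held more than 1 mouse per genotype. Within the series of mouse 7267056 alone (3 wild-type, 2 SCA3) Pmvk differed by -0.80 (FDR 0.000171), Dhcr7 by -0.55 (FDR 0.0102), Insig1 by -0.59 (FDR 0.0188) and Apoe by -0.43 (FDR 0.0719). Of the 3 wild-type libraries of this series, 2 are those high in thalamic markers, mice 7267058 and 7267059, which also held the highest Pmvk levels in striatum (41.6 and 42.3 CPM). Within the series of mouse 9083514 (4 wild-type, 2 SCA3) 0 members were called, and the differences were -0.12, -0.34, -0.30 and -0.45. The count of 4 became 1 without SCA3 mouse 7267056, 2 without SCA3 mouse 7267054 or 9083515 or wild-type mouse 7267058, 7267059 or 9083373, and 7 without SCA3 mouse 9083514.

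In cerebellum and cortex no member passed the test. In cerebellum edgeR called 0 of 35 lower and 0 higher, against 0.0242% and 0.0404% of all genes, with 1 member lower at an unadjusted p under 0.05 (0.978% of all genes) and 0 higher (0.679%). In cortex 0 of 35 were called lower and 0 higher, against 0.0323% and 0.121% of all genes, with 2 members in each direction at an unadjusted p under 0.05, where 1.56% of all genes were lower and 2.51% higher. DESeq2, the quasi-likelihood test and limma-voom called 0 members in both regions. No member had groups that did not overlap, where 0.105% of all genes in cerebellum and 0.0808% in cortex had every SCA3 library below every wild-type one, and 0.129% and 0.17% above.

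In cerebellum Msmo1 measured 28.3, 39.1 and 43.1 CPM in wild-type (lowest, median and highest of 7) and 24.9, 31.7 and 36.4 CPM in SCA3 (of 6), a difference of -0.25 ± 0.11. The groups overlapped, with 2 of 6 SCA3 libraries below all wild-type ones. Hmgcs1 (-0.22), Cyp51 (-0.20), Idi1 (-0.19) and Sqle (-0.15) had the next lowest differences, and Mvd the highest (0.15). The choroid plexus markers in the table (3 of 7) summed to 19.6, 140 and 2118 CPM in wild-type cerebellum and to 658, 1138 and 1998 CPM in SCA3. Of 12 mature oligodendrocyte markers 8 had negative differences in cerebellum (median -0.26, 0 called, 4 lower at an unadjusted p under 0.05), with sums of 3507, 5064 and 5628 CPM in wild-type and 3137, 4168 and 4843 CPM in SCA3. All 10 endothelial markers had negative differences (median -0.23, 0 called, 1 at an unadjusted p under 0.05), with sums of 283, 310.3 and 338 CPM and 232, 278 and 304 CPM. The part of these lists in the cerebellar values was not tested.

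In cortex the largest differences were among transport genes. Npc1 measured 76.0, 90.3 and 99.5 CPM in wild-type and 92.0, 108 and 114 CPM in SCA3 (0.27 ± 0.089, FDR 0.413). Abca1, which loads cholesterol onto ApoE, measured 45.5, 65.6 and 77.4 CPM in wild-type and 59.0, 71.6 and 98.5 CPM in SCA3 (0.27 ± 0.11, FDR 0.855). The groups of both genes overlapped. Apoe measured 1065, 1364 and 1683 CPM in wild-type and 901, 1258 and 1451 CPM in SCA3 (-0.21, FDR 1), and Mvd 15.4, 21.3 and 24.2 CPM in wild-type and 12.2, 17.1 and 20.4 CPM in SCA3 (-0.26, FDR 1). Of 12 astrocyte markers 10 had negative differences in cortex (median -0.12, 0 called, 2 lower at an unadjusted p under 0.05), with sums of 4828, 5565 and 6612 CPM in wild-type and 4593, 5133 and 5520 CPM in SCA3, and their part in the cortical values was not tested.

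**Figure D4:**
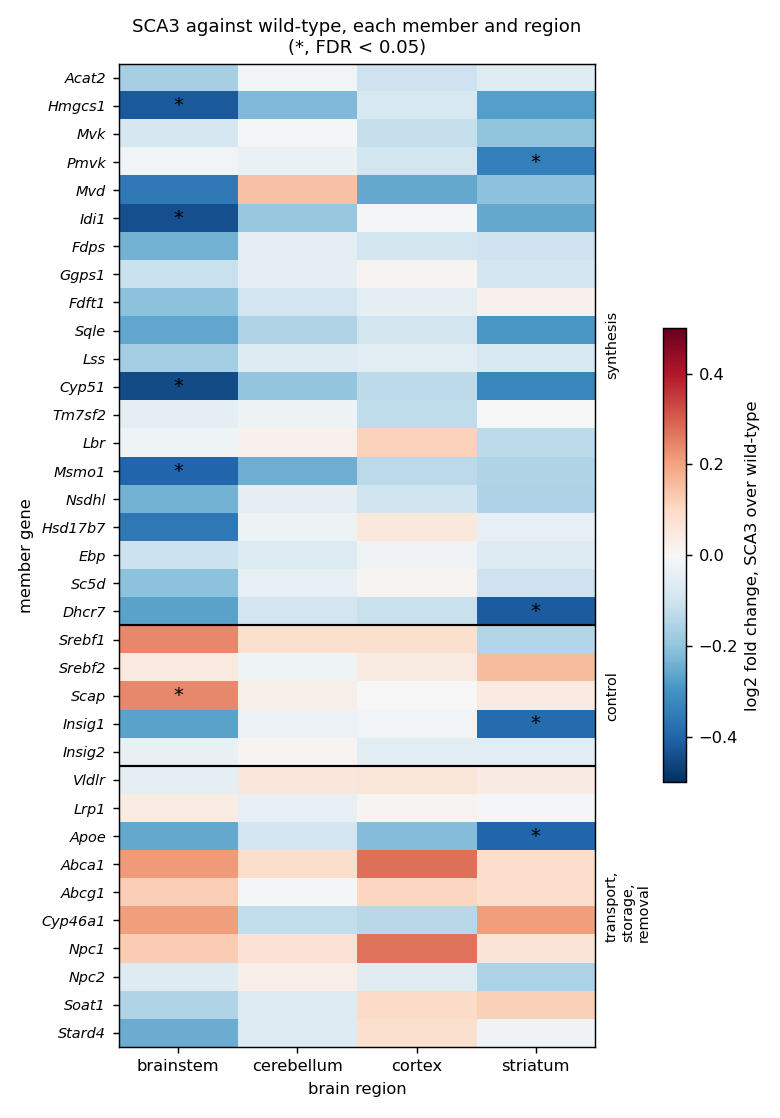
Log2 fold change of SCA3 over wild-type for each member (rows, by role) and region (columns), blue lower and red higher in SCA3, with a star at FDR below 0.05. The synthesis rows are blue throughout brainstem (median -0.22) and mostly blue in striatum (median -0.14), and all 9 stars lie in these 2 regions.

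In each of the 4 regions most synthesis genes had negative differences, and in each region at least 1 of the glial marker lists did too. The median difference was -0.22 in brainstem, -0.14 in striatum, -0.09 in cortex and -0.045 in cerebellum, with 20, 18, 16 and 18 of 20 genes negative. Over the alternatives the ranges of the medians in brainstem, striatum and cortex overlapped, so their order is not firm. Over all genes 49.05%, 50.97%, 51.24% and 52.82% were negative in those regions. Of the 20 genes, 13 had a negative difference in all 4 regions, 6 in 3 regions, and Lbr in 2. Libraries of 1 mouse enter several regions, so the regions are not independent. The summed synthesis level in cerebellum was 643, 703 and 769 CPM in wild-type (lowest, median, highest) and 607, 664 and 699 CPM in SCA3, and in cortex 962, 1064 and 1171 CPM and 895, 1025 and 1132 CPM. In striatum it was 685, 815 and 951 CPM in wild-type and 635, 642, 733, 767 and 866 CPM in SCA3. The groups overlapped in all 4 regions.

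**Figure D5:**
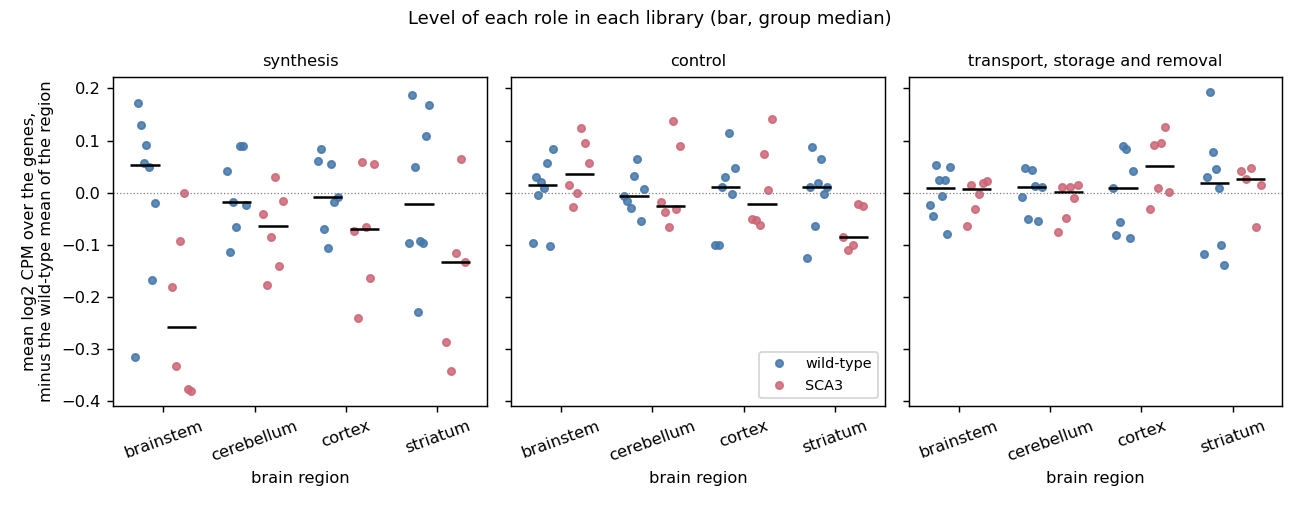
Mean log2 CPM over the genes of each role in each library, minus the wild-type mean of the region, for synthesis, control and transport genes (wild-type blue, SCA3 red, bar at the group median). The SCA3 median for synthesis lies at -0.26 in brainstem and -0.13 in striatum and the groups overlap in each region, while the medians for transport lie between 0.0006 and 0.05.

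The control and transport genes had medians nearer 0. For the control genes these were 0.05 in brainstem, 0.01 in cerebellum, -0.0023 in cortex and -0.05 in striatum, and for the transport genes -0.0045, -0.03, 0.07 and 0.05. Insig1 and Apoe had negative differences in all 4 regions, and Abca1 and Npc1 positive ones in all 4. The sum of the 5 control genes in brainstem ranged from 544 to 620 CPM in wild-type and from 574 to 645 CPM in SCA3. The sum of the 10 transport genes, most of it Apoe and Lrp1, ranged from 2711 to 3303 CPM and from 2606 to 3080 CPM.

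A combined test of any genotype effect over the 4 regions called 7 of 35 members, against 4.73% of all genes. They were the synthesis genes Dhcr7 (FDR 0.000239), Cyp51 (0.00133), Msmo1 (0.0059), Hmgcs1 (0.0143), Mvd (0.047) and Idi1 (0.047) and the lipoprotein gene Apoe (0.00346). With the mouse as a replicate block (limma-voom) 1 of these passed, Dhcr7, where limma-voom without the block called 5. The count was 6 without the striatum libraries and 5 without the brainstem libraries high in thalamic markers. The count was 4 without mouse 7267054 or 7267058 and 3 without mouse 7267056 or 9083515. A test of whether the genotype effect differed between regions called 0 members (0.218% of all genes were called), as did DESeq2, the quasi-likelihood test and limma-voom. At an unadjusted p under 0.05, which 9.09% of all genes met, there were 4, Mvd (FDR 0.421), Scap (FDR 0.524), Dhcr7 (FDR 0.534) and Srebf1 (FDR 0.549). Calls in 1 region and not in another are therefore not shown to differ between regions.

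Neighbouring lipid pathways were read from the same fit. Of 13 fatty acid synthesis and desaturation genes, all 13 had negative differences in brainstem (median -0.16) and in striatum (median -0.29). The desaturase genes Scd2 (-0.35, FDR 0.00792) and Fads1 (-0.25, FDR 0.0131) fell in brainstem, and Scd2 (-0.32, FDR 0.0158), Fads1 (-0.31, FDR 0.00115) and Fads2 (-0.42, FDR 0.0229) in striatum. These 2 and 3 of 13 compare with 1.15% and 5.47% of all genes called lower in the same regions. Oligodendrocyte and astrocyte markers were also lower in both regions, and their part in the fatty acid gene differences was not tested. In cerebellum and cortex 0 of the 13 were called by edgeR, where 0.0242% and 0.0323% of all genes were called lower. In each, 1 was lower at an unadjusted p under 0.05, as were 0.978% and 1.56% of all genes. Of 9 genes of SREBP processing and sterol sensing in the table (of 10), Erlin1 rose (0.37, FDR 0.0382) and Erlin2 fell (-0.26, FDR 0.0448) in striatum, both parts of a complex that helps degrade sterol-regulated enzymes, and 0 were called elsewhere. Of 23 further genes of sterol transport, uptake and oxysterols (of 24), 3 fell in striatum: the ApoE receptor gene Lrp8 (-0.44, FDR 0.000942), the transporter gene Abcg4 (-0.30, FDR 0.00549) and Lipa, the lysosomal lipase (-0.42, FDR 0.0406). The share of all genes in striatum was 5.47% lower and 2.07% higher. Of 11 genes of the isoprenoid branch 0 were called in any region by edgeR, with 1 in each direction at an unadjusted p under 0.05, both in striatum. Of all genes 13.8% were lower and 9.44% higher in striatum at that mark. Without the striatum libraries of mice 7267058 and 7267059, 2 of these 8 striatum calls passed, Fads1 (-0.30, FDR 0.00826) and Lrp8 (-0.42, FDR 0.00914). Abcg4 (-0.25, FDR 0.05, just above the threshold), Fads2 (-0.36, FDR 0.146) and Erlin2 (-0.21, FDR 0.253) kept most of their difference, and Scd2 (-0.17, FDR 0.264), Lipa (-0.22, FDR 0.412) and Erlin1 (0.22, FDR 0.297) kept less of it. Without the 3 brainstem libraries high in thalamic markers Fads1 (-0.32, FDR 0.00145) and Fads2 (-0.43, FDR 0.0318) were called in brainstem, and Scd2 was not (-0.36, FDR 0.0764).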

How the data were processed

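Poly-A RNA from 4 brain regions of 14 mice was sequenced without strand information. Per the submitters' processing notes and the study's methods, reads were prepared with bcl2fastq 1.8, FastQC 0.11.2 and cutadapt 1.10, aligned uniquely to the mouse genome (GRCm38/mm10) with STAR 2.3.0e and counted per RefSeq gene with HTSeq 0.6.1, so reads of overlapping genes on opposite strands and of near-identical copies are uncertain. The authors deposited whole-number counts for 12372 genes that passed their filter on low CPM (edgeR 3.14.0). The lowest mean in the table was 4.07 CPM, so genes below it were not analysed here. Library totals of 31.7 to 76.7 M counts limit the precision of low genes most.

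From these counts all 53 libraries were fitted together in edgeR 4.0.16 (R 4.3.3) with TMM factors and 8 groups of region and genotype, with likelihood ratio tests and Benjamini-Hochberg adjustment over all genes (FDR). CPM are normalised by TMM, and log CPM used a prior count of 2. Values printed with ± are SD for levels and SE for log2 differences. The alternatives were the edgeR quasi-likelihood test, DESeq2 1.42.0, limma-voom (limma 3.58.1) with and without the mouse as a block, other scaling, a minimum of 10 counts, RIN, series of mouse numbers, single regions, marker scores (the mean log2 CPM of a marker list) and leaving out each mouse. The series of mouse 7267056, the oligodendrocyte and astrocyte scores and the removal of libraries high in thalamic markers were added after the data were seen. The fit was tested on simulated data. Figures used Python 3.11.15, pandas 2.3.3 and matplotlib 3.10.9.

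The members and lists were chosen with earlier results of these data known. Any member could be named. Members called in a region or by the combined test are given in full, and genes of other lists where called. The labels tie libraries of different regions to the same mouse: deviations from the group means of the same mouse correlated with a mean r of 0.0904 to 0.186 over the pairs of regions (consensus 0.14), while genotypes were compared between mice. Each mouse is a separate animal.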

Additional observations from a re-analysis of the deposited data

Results flagged for a closer look

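In SCA3 brainstem the library of mouse 9083513 held 20.1 CPM of Mvd, mevalonate diphosphate decarboxylase, where the next highest of the 6 SCA3 libraries held 15.3 CPM. The gap was 0.684 of the group's range, above the critical value of 0.625 for 6 samples. The same library had the highest summed synthesis level of the SCA3 brainstem group (1298 CPM).

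In wild-type brainstem Hsd17b7 was lowest in mouse 7267055, at 24.7 CPM against 41.2 CPM in the next of 8 libraries (0.642 of the range, critical value 0.526). That library also had the lowest wild-type synthesis sum of brainstem. In wild-type cortex Lrp1 was lowest in the same mouse, at 623 CPM against 747 CPM in the next of 7 libraries (0.695, critical value 0.568). In wild-type striatum, against the same critical value of 0.526 for 8 libraries, Tm7sf2 was highest in mouse 9083375 (18.2 CPM, next 15.7 CPM, 0.582 of the range), Vldlr in mouse 7267055 (188 CPM, next 162 CPM, 0.577) and Stard4 in mouse 7267058 (27.1 CPM, next 21.9 CPM, 0.617). In SCA3 striatum Npc1 was highest in mouse 9082853, at 159 CPM against 134.5 CPM in the next of 5 libraries (0.743, critical value 0.71). These 7 values, Mvd included, came from 304 groups checked, the 35 members and the 3 sums by role in each region and genotype, and chance alone passes this mark in about 1 in 20 groups.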

How the results depend on the processing

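The member counts in cerebellum and cortex (0) and for region dependence (0) were the same under every alternative run. For SCA3 brainstem the count of 5 was 3 with the quasi-likelihood test, 3 in libraries with RIN of at least 7, 2 with RIN as covariate, 2 with the oligodendrocyte score, 2 with the astrocyte score (in both cases Npc1 and Npc2), 0 without the 3 libraries high in thalamic markers and 0 in the number series of mouse 9083514 or of mouse 7267056 alone. For striatum the count of 4 was 2 in libraries with RIN of at least 7, 2 in the region's libraries alone, 1 with the thalamic score, 2 with the oligodendrocyte score, 0 with the astrocyte score, 1 without libraries high in thalamic markers and 0 in the series of mouse 9083514 alone. The combined count of 7 was 4 with RIN of at least 7 and 0 in the series of mouse 9083514 alone. Leaving out 1 mouse gave 0 to 8 in brainstem, 1 to 7 in striatum, 3 to 8 for the combined test and 1 to 2 for wild-type cortex. None of these counts was set against the share of all genes called under the same alternative.

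With the astrocyte score the difference turned above 0 for Idi1 in brainstem (0.0795) and Pmvk in striatum (0.023). Npc2 in brainstem, not called in the main fit, was negative in 26 of 26 alternatives without a glial score and was called higher with either score. Fewer libraries enter the single-series, RIN and left-out settings, and otherwise the cause was not tested. Of 29 alternatives in striatum, the call and direction held in 27 for Dhcr7, 22 for Apoe and 14 for Insig1 and for Pmvk, and of 30 in brainstem in 23 for Cyp51 and for Msmo1, 20 for Scap, 12 for Hmgcs1 and 11 for Idi1. The synthesis median stayed below 0 in 29 of 30 in brainstem and in 29 of 29 in striatum. It ran from -0.27 to 0.02 in brainstem and from -0.36 to -0.08 in striatum. In cortex it ran from -0.27 to -0.04 and in cerebellum from -0.07 to -0.03.

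With the mouse as a replicate block (limma-voom) 4 members were called in brainstem, 2 in striatum and 1 by the combined test, and no wild-type regional count changed.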
